A study of Mus musculus with 12 samples.

Results

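Maternal mRNA storage and deadenylation genes are described here in mouse oocytes with and without MTR4. They are 10 genes chosen by name for their known roles, Zar1, Ybx2, Cpeb1, Lsm14b, Ddx6, Eif4enif1, Igf2bp2, Btg4, Cnot7 and Zfp36l2. The choice was made with earlier results of these data known. All 10 were found among the 23235 gene symbols of the table. A growing oocyte makes far more mRNA than it translates. Much of that mRNA is kept silent in ribonucleoprotein particles, usually with a shortened poly(A) tail, until meiosis resumes, when some messages receive a longer tail and are translated while others lose theirs and are degraded. The 10 genes encode parts of that machinery: proteins that mask or store mRNA, a protein that reads the cytoplasmic polyadenylation element (CPE) in 3′ untranslated regions, and factors of the CCR4-NOT deadenylase.

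The 4 groups were Mtr4-null oocytes at postnatal day 21, WT oocytes at day 21, Mtr4-null oocytes at day 14 and WT oocytes at day 14, with 3 libraries listed for each group and 10 oocytes per library. Day 14 samples are labelled as growing oocytes and day 21 samples as germinal vesicle (GV) oocytes. Mtr4-null oocytes lack MTR4, the RNA helicase that hands nuclear RNA to the RNA exosome for degradation. The strain, the deleted part of the gene and the promoter of any Cre transgene are not given in the sources used here, nor is whether libraries of a group came from different mice.

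Poly(A) RNA was copied by Smart-seq2 from an oligo-dT primer, without keeping the strand. A value below is the authors' FPKM mean over the libraries of a group (a fragment count corrected for how long the transcript is and how deep the library is), so no replicate error, depth or test can be given. A difference is therefore described by its size on the log2(FPKM + 1) scale, as Mtr4-null minus WT or as day 21 minus day 14, and a gene is called higher or lower where it was at least 2-fold apart on that scale, a log2 difference of 1. On this scale the fold of a scarce mRNA comes out too small. All 10 genes averaged 1 FPKM or more over the 4 groups, as did 11913 genes of the table, which serve as the background. A lower number of molecules and a shorter poly(A) tail cannot be told apart in libraries primed on that tail, and FPKM do not show a difference in RNA content per oocyte. Skiv2l2, the older symbol of the gene for MTR4, stood at 3.86 FPKM in Mtr4-null and 26.3 FPKM in WT oocytes at day 21, and at 1.57 FPKM in Mtr4-null and 27.6 FPKM in WT oocytes at day 14. The last digits of the Mtr4-null day 21 values are those of means of 2 numbers: 92.3% of 2211 values between 10 and 100 with 5 decimals end in 5, against 11.1% to 15.2% in the other groups. That mean may rest on fewer libraries than the 3 listed. The oocyte identity of the samples was visible in 12 oocyte markers, which summed to 15618 FPKM in Mtr4-null and 20588 FPKM in WT oocytes at day 21 and to 24466 FPKM in Mtr4-null and 25089 FPKM in WT oocytes at day 14. The 10 granulosa markers summed to 24.2 to 38.0 FPKM per group and the 12 theca, stromal, endothelial and blood markers to 3.61 to 22.3 FPKM, with the granulosa markers Amh and Foxl2 at no more than 0.32 FPKM and Hbb-b1 and Hba-a1 at 0 in every group. Some of these markers moved with genotype at day 21: the granulosa marker Cyp19a1 stood at 1.48 FPKM in Mtr4-null and 25.3 FPKM in WT oocytes, Inha at 10.9 FPKM in Mtr4-null and 1.72 FPKM in WT oocytes, and the endothelial marker Pecam1 at 2.13 FPKM in Mtr4-null and 20.7 FPKM in WT oocytes. Their part in the results below was not tested.

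The CPE sequence is shown because it is the element through which CPEB1, one of the 10 proteins, controls stored mRNA. The letters UUUUAU and UUUUAAU were searched on the transcript strand in the last 100 bases of the annotated 3′ untranslated region, in 1 GENCODE vM21 (GRCm38) transcript per gene. They were found there in 3 of the 10 genes. In the stretches below, capitals mark the CPE and, in Cnot7, also the poly(A) signal AAUAAA. The CPE starts 62 bases before the transcript end in Ybx2 on chromosome 11, 67 bases before it in Btg4 on chromosome 9 and 20 bases before it in Cnot7 on chromosome 8.
Ybx2: gccaUUUUAUgaacugucaugugccaccug
Btg4: cccuUUUUAUgucuuuuuaaaaguuugauu
Cnot7: uuaagguacaUUUUAUaucAAUAAAaauac

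Of 9404 genes of the background with a 3′ untranslated region of at least 100 bases in this annotation, 20.1% hold either form of the element in the same window. Over the whole annotated 3′ untranslated region, 9 of the 10 genes hold at least 1 copy, the exception being Zar1, whose region is 146 bases long. In Cnot7 the whole region of 951 bases holds 8 copies of UUUUAU. The share of all genes with a copy in the whole region was not computed. These counts therefore do not show that the 10 genes are rich in the element. Neither form of the poly(A) signal searched, AAUAAA or AUUAAA, occurs in the last 100 bases of Ybx2 or Btg4. Of the 9404 genes, 81.6% hold a signal there. A match is only a stretch of letters, and the 3′ ends that oocytes use may differ from the annotated ones.

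In WT oocytes Btg4 and Zar1 were by far the most abundant of the 10 mRNAs per length, and Ddx6 and Zfp36l2 the least abundant. At day 21, WT oocytes held 1936 FPKM of Btg4, which ranked 21st of all symbols, 1151 FPKM of Zar1, 322 FPKM of Cpeb1 and 232 FPKM of Eif4enif1. Cnot7 stood at 168 FPKM, Igf2bp2 at 120 FPKM, Lsm14b at 64.0 FPKM and Ybx2 at 61.7 FPKM in the same oocytes. Ddx6 and Zfp36l2 stood at only 1.98 and 1.73 FPKM. The order in day 14 WT oocytes was the same except that Igf2bp2 stood above Cnot7 and Ybx2 above Lsm14b. Whether such neighbours differ beyond their spread cannot be judged without replicates. In Mtr4-null oocytes of day 21 the 10 mRNAs summed to 1642 FPKM, 0.253% of the column, against 4059 FPKM or 0.672% in WT oocytes of that age. At day 14 they summed to 2825 FPKM or 0.474% in Mtr4-null and 3137 FPKM or 0.523% in WT oocytes.

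**Figure D1:**
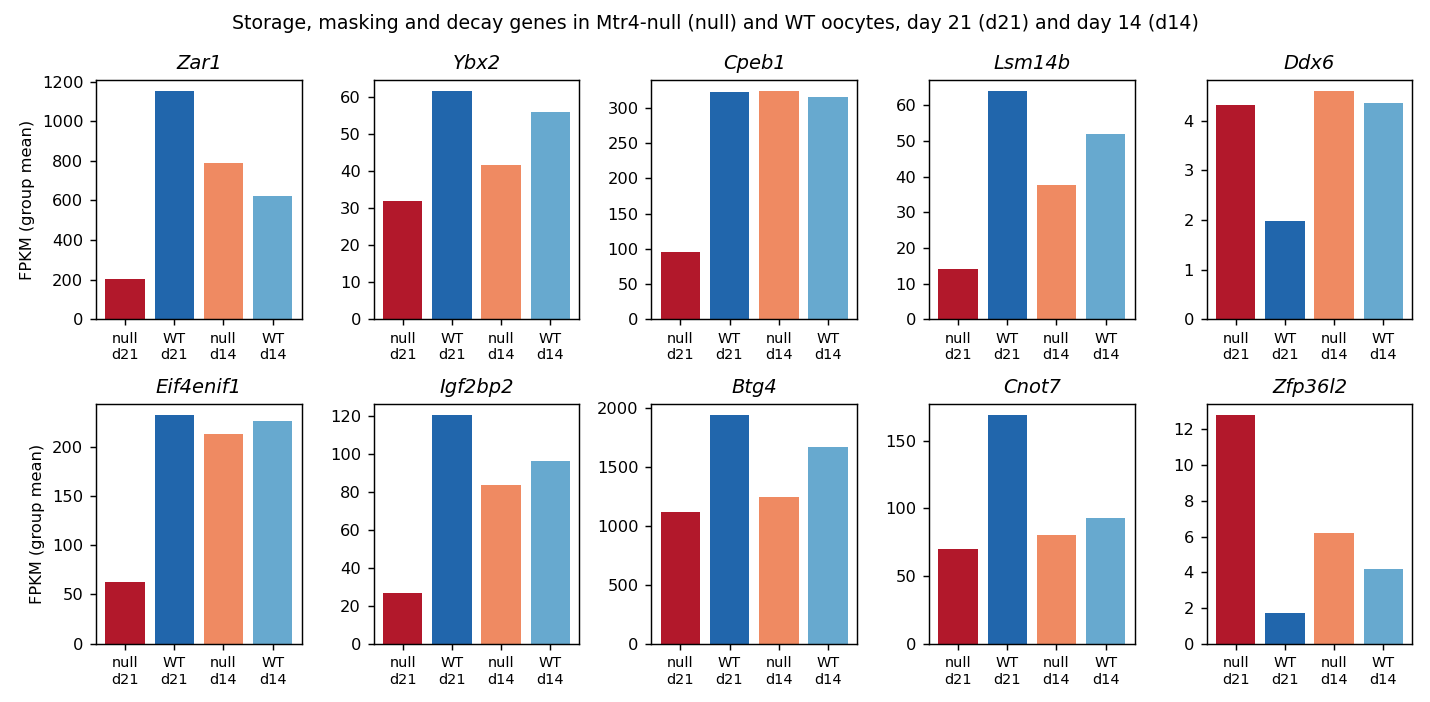
Bars give the mean FPKM of a group as deposited, with no error available, for Mtr4-null (null) and WT oocytes at day 21 (d21) and day 14 (d14); each panel has its own linear axis from 0. In the 5 panels of Zar1, Cpeb1, Lsm14b, Eif4enif1 and Igf2bp2 the Mtr4-null day 21 bar stands well below the other 3 bars, while for Zfp36l2 it is the tallest at 12.8 FPKM.

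At day 21 most of the storage and masking mRNAs were far less abundant in oocytes without MTR4. Of the 10 genes, 6 were at least 2-fold lower and 1 was at least 2-fold higher in Mtr4-null oocytes, while over all genes tested 25.7% were lower and 20.2% higher. Because the 10 genes were chosen with earlier results of these data known, these counts describe the set and are no test. The median log2 difference of the 10 genes was -1.50, beside -0.27 for all genes. At day 14, in contrast, none of the 10 differed 2-fold, where 8.1% of all genes were higher and 1.55% lower, and the median was -0.14, beside 0.052 for all genes. Whether the genotype difference itself differs between the ages could not be tested, but its size changed by at least 2-fold for 7 of the 10 genes, being more negative at day 21 for 6 and more positive for 1 (over all genes, 22.4% and 13.6%). For Cnot7 that change was -1.05, and -0.75 or -0.85 with median-of-ratios or quantile scaling.

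**Figure D2:**
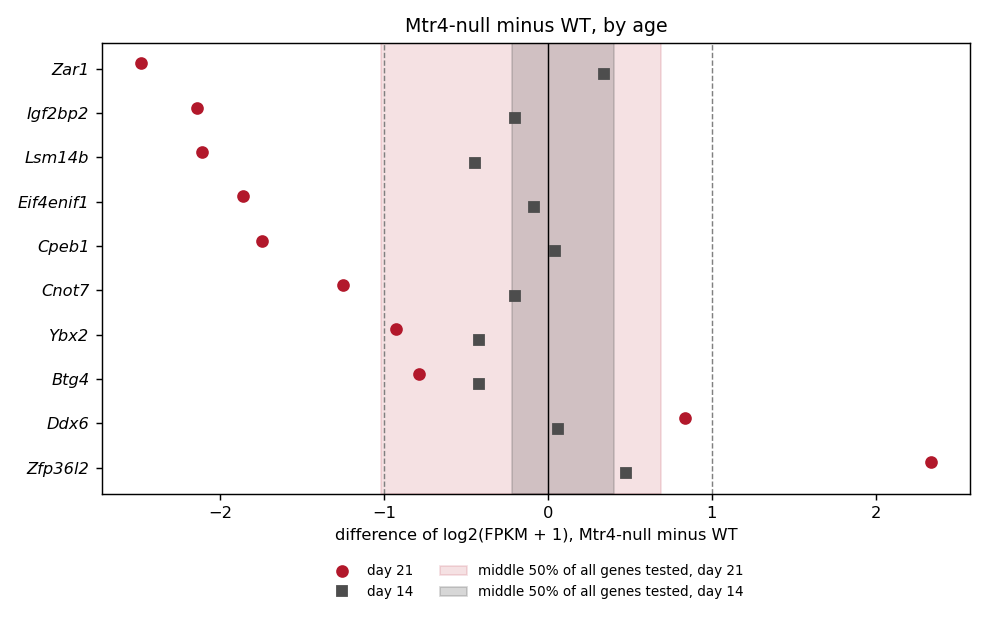
Points give the difference of log2(FPKM + 1), Mtr4-null minus WT, at day 21 (circles) and day 14 (squares); shaded bands hold the middle 50% of the 11913 genes tested at each age and dashed lines mark 2-fold. At day 21 the points run from -2.48 for Zar1 to 2.34 for Zfp36l2, while at day 14 they lie between -0.45 and 0.48.

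Among the masking and storage genes of the 10, Zar1 showed the largest difference. ZAR1 is an oocyte RNA-binding protein that binds 3′ untranslated regions and is needed for mRNA storage and the passage from oocyte to embryo. Zar1 mRNA stood at 205 FPKM in Mtr4-null and 1151 FPKM in WT oocytes at day 21, and at 788 FPKM in Mtr4-null and 623 FPKM in WT oocytes at day 14. Its FPKM in Mtr4-null oocytes was thus 5.61-fold lower at day 21 and 1.27 times the WT value at day 14, log2 differences of -2.48 and 0.34. Only 1.89% of all genes tested had a lower day 21 difference. Its rank by level was 556th in Mtr4-null and 54th in WT oocytes at day 21.

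Lsm14b and Igf2bp2 differed almost as much at day 21. LSM14B, a protein of RNA particles, is needed in mouse oocytes to store mRNA and to complete meiosis. Lsm14b stood at 14.01 FPKM in Mtr4-null and 64.0 FPKM in WT oocytes at day 21, against 37.8 FPKM in Mtr4-null and 51.9 FPKM in WT oocytes at day 14. Its log2 difference was -2.11 at day 21 and -0.45 at day 14. IGF2BP2 binds and stabilises mRNA and is a maternal factor in mice. Igf2bp2 stood at 26.5 FPKM in Mtr4-null and 120 FPKM in WT oocytes at day 21, and at 83.9 FPKM in Mtr4-null and 96.5 FPKM in WT oocytes at day 14, log2 differences of -2.14 and -0.20.

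Eif4enif1 and Cpeb1 went side by side. Eif4enif1 encodes 4E-T, which binds the cap-binding protein eIF4E and keeps it from starting translation, and CPEB1 binds the CPE and holds the poly(A) tail short until maturation. Eif4enif1 stood at 63.0 FPKM in Mtr4-null and 232 FPKM in WT oocytes at day 21, and at 213 FPKM in Mtr4-null and 226 FPKM in WT oocytes at day 14. Cpeb1 stood at 95.4 FPKM in Mtr4-null and 322 FPKM in WT oocytes at day 21, and at 324 FPKM in Mtr4-null and 315 FPKM in WT oocytes at day 14. For both genes the Mtr4-null day 21 mean was the low one and the other 3 means lay close together. The day 21 log2 differences were -1.86 for Eif4enif1 and -1.74 for Cpeb1. At day 14 they were -0.085 for Eif4enif1 and 0.040 for Cpeb1, and the sign of the Cpeb1 value turned under median-of-ratios scaling, to -0.11.

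Ybx2 and Ddx6 differed less. YBX2, also called MSY2, is the main mRNA-masking protein of germ cells, and its mRNA stood at 31.9 FPKM in Mtr4-null and 61.7 FPKM in WT oocytes at day 21, and at 41.7 FPKM in Mtr4-null and 56.1 FPKM in WT oocytes at day 14. Its log2 differences were -0.93 and -0.42, the day 21 value being -1.04 and past 2-fold when all columns are rescaled to the same sum. DDX6 is an RNA helicase that represses translation and helps to remove the cap. Ddx6 stood at 4.32 FPKM in Mtr4-null and 1.98 FPKM in WT oocytes at day 21, and at 4.60 FPKM in Mtr4-null and 4.37 FPKM in WT oocytes at day 14, so that the WT day 21 mean was the low one. Its day 21 log2 difference was 0.83, or 1.09 with a pseudocount of 0.1, and its day 14 difference of 0.061 turned negative with median-of-ratios and quantile scaling, to -0.061 and -0.20.

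Btg4 and Cnot7, the members on the deadenylase list, lay below WT at day 21 and at day 14. BTG4 bridges CCR4-NOT to the translated mRNA and is required for clearance of maternal mRNA when the oocyte matures. Btg4 stood at 1119 FPKM in Mtr4-null and 1936 FPKM in WT oocytes at day 21, and at 1246 FPKM in Mtr4-null and 1668 FPKM in WT oocytes at day 14. Its log2 differences were -0.79 and -0.42, and the day 21 value passed 2-fold under quantile normalization, at -1.20. CNOT7 is a catalytic subunit of CCR4-NOT that removes the poly(A) tail. Cnot7 stood at 70.2 FPKM in Mtr4-null and 168 FPKM in WT oocytes at day 21, and at 80.4 FPKM in Mtr4-null and 92.7 FPKM in WT oocytes at day 14, log2 differences of -1.25 and -0.20.

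Zfp36l2 was the only one of the 10 that was at least 2-fold higher. ZFP36L2 binds AU-rich elements in 3′ untranslated regions, recruits CCR4-NOT and in mouse oocytes is needed for their growth to competence. Zfp36l2 stood at 12.8 FPKM in Mtr4-null and 1.73 FPKM in WT oocytes at day 21, 7.40 times the WT value, and at 6.17 FPKM in Mtr4-null and 4.16 FPKM in WT oocytes at day 14. The log2 differences were 2.34 and 0.48, and 92.3% of all genes tested had a lower one at day 21. The gene has 2 exons in the annotation, against 4 to 19 exons in the other 9.

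Among the 8 genes with a negative log2 difference at day 21, the 3 with a CPE near the annotated 3′ end, shown above, had the smallest shortfall. Ybx2, Btg4 and Cnot7 had values between -1.25 and -0.79, while the 5 without a CPE in the last 100 bases lay between -2.48 and -1.74. Ddx6 and Zfp36l2, which were not lower, also lack a CPE in that window and lay at 0.83 and 2.34. Over all 10 genes, those without it thus ran from -2.48 to 2.34, on both sides of those with it. The motif was searched with these values known, so this is a description of 8 genes and no test.

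Ratios within a group stay the same when a whole column is multiplied by a constant, but not under quantile normalization. For each FPKM of Btg4 there were 0.183 FPKM of Zar1 in Mtr4-null and 0.595 FPKM in WT oocytes at day 21, and 0.632 FPKM in Mtr4-null and 0.373 FPKM in WT oocytes at day 14. Cpeb1 gave 0.0852 FPKM per FPKM of Btg4 in Mtr4-null and 0.166 in WT oocytes at day 21, and Eif4enif1 gave 0.0563 in Mtr4-null and 0.120 in WT oocytes. As deposited, Ybx2 kept nearly the same ratio to Btg4 at all 4 points, with 0.0285 in Mtr4-null and 0.0319 in WT oocytes at day 21 and 0.0334 in Mtr4-null and 0.0336 in WT oocytes at day 14. Under quantile normalization the day 21 log2 differences were -0.71 for Ybx2 and -1.20 for Btg4, so that the ratio was not kept there. Differences at day 21 were unequal within the set, and Zar1, Cpeb1 and Eif4enif1 were lower against Btg4 as well as in FPKM.

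Age was compared within each genotype, between oocytes labelled as growing at day 14 and as GV at day 21. Oocyte size is not given for either genotype. In WT oocytes none of the 10 differed 2-fold between day 21 and day 14, where 2.02% of all genes were higher and 3.32% lower at day 21. Zar1 and Cnot7 came closest among the higher ones, with log2 differences of 0.89 and 0.85, and 97.0% and 96.7% of all genes had lower values. Zfp36l2 and Ddx6 lay at the other end, at -0.92 and -0.85, and with a pseudocount of 0.1 both passed 2-fold, at -1.22 and -1.10. The median of the 10 was 0.17, beside -0.0044 for all genes.

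In Mtr4-null oocytes 5 of the 10 were at least 2-fold lower at day 21 than at day 14 and none was higher, where 18.6% of all genes were lower and 9.08% higher. These were Zar1, Cpeb1, Eif4enif1, Igf2bp2 and Lsm14b, with log2 differences of -1.94, -1.75, -1.74, -1.63 and -1.37. Zar1 was thus lower with age in Mtr4-null oocytes, while its difference with age in WT oocytes, 0.89, was positive but short of 2-fold. Btg4, Cnot7 and Ddx6 lay at -0.15, -0.19 and -0.075 with age in Mtr4-null oocytes, and under median-of-ratios scaling all 3 turned positive, at 0.16, 0.12 and 0.18. Zfp36l2 lay at 0.94, and at 1.22 under median-of-ratios scaling. Comparisons of age and of genotype share group means, so the Mtr4-null day 21 mean enters both the genotype difference at day 21 and the age difference in Mtr4-null oocytes.

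**Figure D3:**
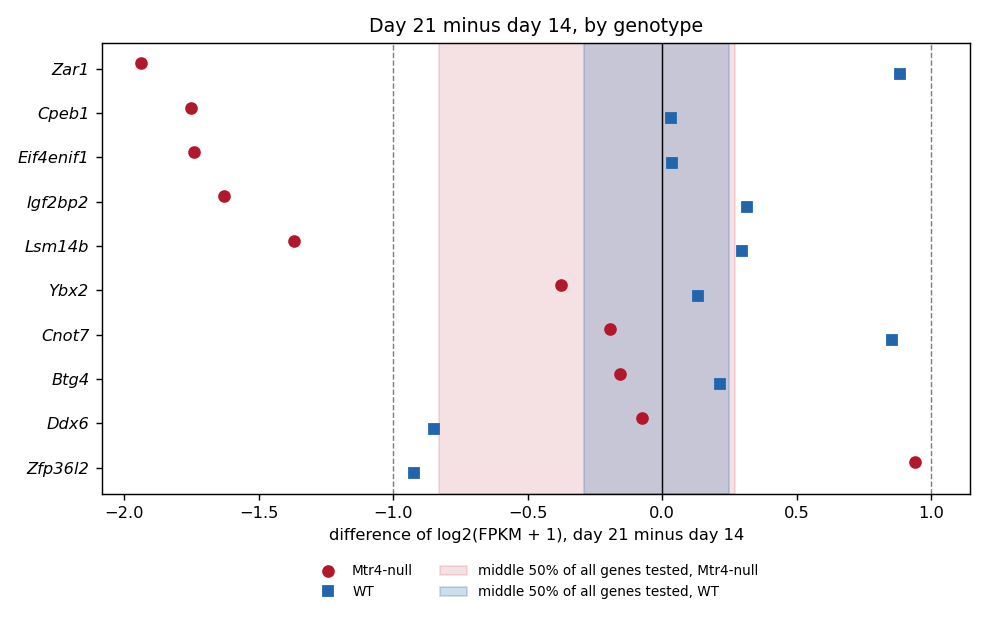
Points give the difference of log2(FPKM + 1), day 21 minus day 14, in Mtr4-null oocytes (circles) and WT oocytes (squares), with bands for the middle 50% of all genes tested and dashed lines at 2-fold. The Mtr4-null points of 5 genes lie between -1.94 and -1.37, whereas all WT points lie inside the 2-fold lines.

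The patterns of other genes over the 4 groups were compared with each member by the distance between log2(FPKM + 1) profiles centred on their means, among 6164 genes averaging 10 FPKM or more. Cpeb1 was closest to Ddb1, at a distance of 0.014 on the log2 scale. Ddb1 stood at 28.1 FPKM in Mtr4-null and 96.0 FPKM in WT oocytes at day 21, and at 96.5 FPKM in Mtr4-null and 93.1 FPKM in WT oocytes at day 14. Eif4enif1 was closest to Nsf, at 0.050, Ybx2 to Dcaf13, at 0.041, and Igf2bp2 to Fmnl3, at 0.059. Zar1 had no such close neighbour, its nearest being Pstpip1 at 0.20. Within the set, Cpeb1 and Eif4enif1 lay 0.12 apart and Ybx2 and Btg4 0.18 apart, while 17 genes outside the set lay closer to Cpeb1 than Eif4enif1 did and 129 closer to Ybx2 than Btg4 did.

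The wider pathway was read from lists of storage, deadenylation, adaptor, decapping, tail and cap-binding genes, with 101 genes besides the 10, of which 92 averaged 1 FPKM or more. At day 21, 32 of the 92 were at least 2-fold lower and 10 higher in Mtr4-null oocytes, with a median log2 difference of -0.65, beside 25.7% lower, 20.2% higher and a median of -0.27 for all genes. At day 14 only Cnot3, a CCR4-NOT subunit named after its value was seen, was 2-fold apart, at 41.0 FPKM in Mtr4-null and 19.7 FPKM in WT oocytes. Over all genes 8.1% were higher and 1.55% lower at that age.

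Storage and masking genes were the list with the lowest median. With the members included, 16 of its 24 measured genes were lower and 1 higher at day 21, with a median of -1.33. Without the members, 11 of 17 were lower and 1 higher, with a median of -1.13. Over all genes 25.7% were lower and 20.2% higher. Ybx3, listed under its older symbol Csda and encoding a relative of YBX2, stood at 14.01 FPKM in Mtr4-null and 125 FPKM in WT oocytes, a log2 difference of -3.07. Rbpms2, an RNA-binding protein gene, stood at 99.4 FPKM in Mtr4-null and 438 FPKM in WT oocytes. The higher gene was Cpeb2, a relative of Cpeb1, at 5.96 FPKM in Mtr4-null and 0.594 FPKM in WT oocytes. Caprin1 and Ybx1 differed least downward among genes averaging 5 FPKM or more, with log2 differences of -0.023 and -0.63.

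Deadenylase genes had 8 of 21 lower and 1 higher, and a median of -0.82, beside 25.7% lower and 20.2% higher of all genes. Without Btg4 and Cnot7, 7 of 19 were lower and 1 higher, with the same median. Cnot10, another CCR4-NOT subunit, stood at 6.14 FPKM in Mtr4-null and 24.1 FPKM in WT oocytes, and the poly(A)-specific ribonuclease gene Parn at 7.28 FPKM in Mtr4-null and 22.1 FPKM in WT oocytes. Toe1, a deadenylase of small nuclear RNA, was the higher one, at 18.1 FPKM in Mtr4-null and 3.13 FPKM in WT oocytes. Cnot9, listed as Rqcd1, stood at 55.5 FPKM in Mtr4-null and 36.5 FPKM in WT oocytes.

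The mRNA-binding adaptors, the list that holds Zfp36l2, had the only positive median, 0.11, with 4 of 17 higher and 1 lower. Without Zfp36l2 the median was 0.037, with 3 of 16 higher and 1 lower. Over all genes 20.2% were higher, a share near that of the list, and 25.7% lower. Nanos1, which encodes a translational repressor that recruits CCR4-NOT, stood at 62.9 FPKM in Mtr4-null and 10.1 FPKM in WT oocytes, a log2 difference of 2.53. Nanos2 was the lower one, at 27.8 FPKM in Mtr4-null and 61.5 FPKM in WT oocytes. Elavl1, the gene of the RNA-stabilising protein HuR, stood at 9.48 FPKM in Mtr4-null and 4.96 FPKM in WT oocytes, and Ythdc2 at 2.60 FPKM in Mtr4-null and 5.91 FPKM in WT oocytes.

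Decapping genes lay near all genes, with a median of -0.33 and 2 of 13 in each direction, beside 25.7% lower and 20.2% higher of all genes. Lsm1, part of the ring that binds deadenylated mRNA, stood at 153 FPKM in Mtr4-null and 44.8 FPKM in WT oocytes, and the decapping scaffold gene Edc4 at 9.72 FPKM in Mtr4-null and 43.0 FPKM in WT oocytes. Lsm4 and Lsm7 lay at -1.24 and 0.61 on the log2 scale.

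Of the poly(A) tail genes 8 of 18 were lower and 1 higher, with a median of -0.88, beside 25.7% lower and 20.2% higher of all genes. Pabpc1l, the poly(A)-binding protein gene of oocytes, stood at 39.2 FPKM in Mtr4-null and 154 FPKM in WT oocytes, and Pabpc1, its counterpart in other cells, at 28.1 FPKM in Mtr4-null and 9.32 FPKM in WT oocytes. The poly(A) polymerase gene Papolg stood at 10.3 FPKM in Mtr4-null and 40.5 FPKM in WT oocytes, and Cpsf2 at 12.7 FPKM in Mtr4-null and 11.9 FPKM in WT oocytes.

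Of the cap-binding genes, Eif4enif1 among them, 5 of 11 were lower and 2 higher, with a median of -0.94. Without Eif4enif1, 4 of 10 were lower and 2 higher, with a median of -0.77, beside 25.7% lower and 20.2% higher of all genes. Eif4e3 stood at 29.3 FPKM in Mtr4-null and 211 FPKM in WT oocytes, and Eif4g3 at 2.43 FPKM in Mtr4-null and 10.8 FPKM in WT oocytes. Eif4ebp1, which encodes another eIF4E-binding repressor, was higher, at 16.4 FPKM in Mtr4-null and 4.89 FPKM in WT oocytes, and Eif4g2 stood at 79.9 FPKM in Mtr4-null and 65.7 FPKM in WT oocytes.

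A list of mRNAs taken as dormant until maturation held 16 genes, including Btg4 and Cnot7. Their translation was not measured here. The list had a median of -0.46, with 2 lower and 1 higher, beside 25.7% lower and 20.2% higher of all genes. Without Btg4 and Cnot7 the median of the other 14 was -0.35, near the -0.27 of all genes, with 1 lower and 1 higher. Besides Cnot7, the lower one was Cnot6l, a second catalytic deadenylase gene, at 34.4 FPKM in Mtr4-null and 77.1 FPKM in WT oocytes. Slbp stood at 581 FPKM in Mtr4-null and 1156 FPKM in WT oocytes, Dazl at 660 FPKM in Mtr4-null and 377 FPKM in WT oocytes, and Tex19.1, the higher one, at 630 FPKM in Mtr4-null and 145 FPKM in WT oocytes.

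**Figure D4:**
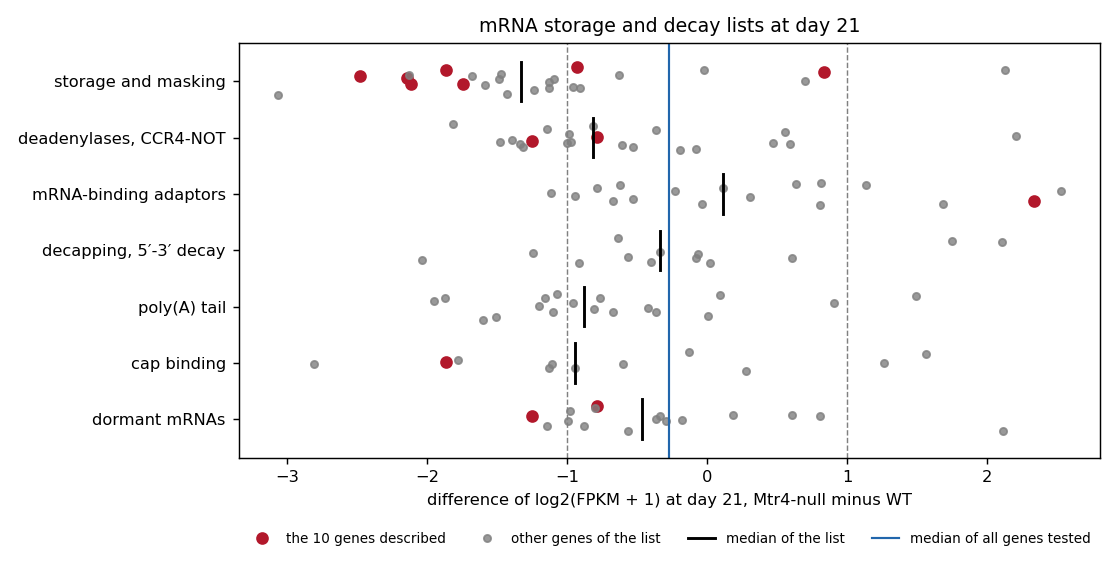
Each point is a gene averaging 1 FPKM or more, placed by its difference of log2(FPKM + 1) at day 21, Mtr4-null minus WT; red points are the 10 genes described, black bars the medians of the lists and the blue line the median of all genes, -0.27. Vertical scatter within a list has no meaning, and a gene can stand in several lists; the median runs from -1.33 for storage and masking to 0.11 for mRNA-binding adaptors.

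The promoters of Zar1 and Btg4 are shown because these are the most abundant of the 10 mRNAs and went far apart at day 21. They come from RefSeq on GRCm38.p6 and run from 250 bases before to 50 bases after the gene start. The table held 7 of the 10 genes, without Ddx6, Cnot7 and Zfp36l2. Capitals mark the E-box, a site of oocyte factors such as FIGLA that was searched as CANNTG. Capitals also mark a TATA-like run of 7 letters. The Zar1 promoter lies at chr5:72581035-72581334 on the minus strand, and that of Btg4 at chr9:51115751-51116050 on the plus strand.
Zar1: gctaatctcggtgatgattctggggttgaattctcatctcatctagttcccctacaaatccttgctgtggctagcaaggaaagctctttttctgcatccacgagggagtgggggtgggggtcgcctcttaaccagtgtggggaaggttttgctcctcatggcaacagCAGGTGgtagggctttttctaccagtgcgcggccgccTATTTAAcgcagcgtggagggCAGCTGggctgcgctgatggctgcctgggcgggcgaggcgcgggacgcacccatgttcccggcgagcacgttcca
Btg4: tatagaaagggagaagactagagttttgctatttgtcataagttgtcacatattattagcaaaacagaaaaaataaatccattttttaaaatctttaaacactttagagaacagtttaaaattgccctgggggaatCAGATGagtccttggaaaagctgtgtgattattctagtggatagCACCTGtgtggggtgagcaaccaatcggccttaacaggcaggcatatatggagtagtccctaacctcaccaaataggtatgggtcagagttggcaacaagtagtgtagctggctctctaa

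Each holds 2 E-boxes, which do not overlap another motif searched. The pattern CANNTG is the same on both strands, and 29.9% of 8394 promoters of genes averaging 1 FPKM or more hold 2 or more such boxes. The TATA-like run TATTTAA, searched on both strands, occurs once in the Zar1 promoter and not in that of Btg4, and in 2.70% of all these promoters. The NOBOX element TAATTG, searched on both strands, is in neither and in 5.18% of all. The GC content is 58.7% for Zar1 and 39.0% for Btg4, beside a median of 60.3% for all. Of the oocyte transcription factors, Nobox stood at 163 FPKM in Mtr4-null and 541 FPKM in WT oocytes at day 21 and Figla at 116 FPKM in Mtr4-null and 85.6 FPKM in WT oocytes.

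In GENCODE vM21, 6 of the 10 genes overlap another gene, and exons are shared for 2 of them, over 4.24% of the exonic bases of Cnot7, with Zdhhc2 on the opposite strand, and 2.97% of those of Zfp36l2, with an antisense gene whose level was not analysed here. Zdhhc2 stood at 0.269 FPKM in Mtr4-null and 0.0600 FPKM in WT oocytes at day 21. Since strand was not kept, reads from the shared stretches cannot be assigned.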

How the data were processed

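Poly(A) RNA of oocytes from 4 groups was sequenced. The submitters' processing notes name Cufflinks 2.2.1, TopHat2 2.1.1 and the build mm9 without saying what each did. FPKM, 1 value per gene and group, were deposited, which the authors scaled to transcript length and library size. Averaging is read from the digits, and counts or depth are not given there, so no interval can be given.

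Differences of log2(FPKM + 1) between group means were computed for 11913 genes averaging 1 FPKM or more (Python 3.11.15, pandas 2.3.3, numpy 2.4.6). A check on simulated data covered only the arithmetic of the differences and calls. It says nothing of the spread between libraries, which is unknown here. No statistical test between groups was run; genes at least 2-fold apart were called. The members and lists were chosen with earlier results of these data known. All 154 list symbols were found, 9 by synonym. Besides the members, the text names from each list the 2 genes with the largest and the 2 with the smallest day 21 difference at a mean FPKM of at least 5, plus the targeted gene and, for pattern likeness, the nearest gene. Oocyte transcription factors, Cnot3 and Cpeb2 were named after their values were seen. Motifs were read from GENCODE vM21 transcripts and RefSeq promoters, not from mm9. Alternatives were a pseudocount of 0.1, 3 other scalings, a minimum mean FPKM of 5 and no filter.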

Additional observations from a re-analysis of the deposited data

How the results depend on the processing

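The 6 members lower at day 21 kept their direction and stayed past 2-fold under all 6 alternatives. The count was 6 or 7, and none of the 10 passed 2-fold at day 14 under any. The 2 alternatives that only change the filter cannot move a member's value. The median of all 10 members relative to that of all genes at day 21 was -1.22 as deposited. It was -1.20 under median-of-ratios scaling, -1.15 under quantile normalization and -1.22 with rescaled columns. The median of all genes moved from -0.27 as deposited to -0.15, -0.27 and -0.39 in the same order. With a pseudocount of 0.1 the members higher at day 21 were 2 rather than 1, those lower with age in WT oocytes 2 rather than 0, those higher with age in Mtr4-null oocytes 1 rather than 0 and those with a more positive genotype difference at day 21 than at day 14 were 2 rather than 1. Median-of-ratios scaling also gave 1 and 2 for the last 2 of these, quantile normalization gave 1 higher with age in Mtr4-null oocytes, and rescaled columns gave 1 lower with age in WT oocytes. The members' median with age in Mtr4-null oocytes was -0.87 as deposited, -0.57 under median-of-ratios scaling, -0.86 under quantile normalization, -0.90 with a pseudocount of 0.1, -1.01 with rescaled columns and -1.37 with a minimum mean FPKM of 5, which removes Ddx6. Of 295 values of single members under the alternatives, 275 kept their sign and side of 2-fold. Among these are 45 values with a minimum mean FPKM of 5 and 50 with no filter, which could not differ.

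Over all genes, a pseudocount of 0.1 called 1406 higher and 334 lower at day 14 rather than 965 and 185, and 447 and 835 with age in WT oocytes rather than 241 and 396. At day 21 it called 2718 higher and 3553 lower rather than 2410 and 3067. Rescaled columns gave 2393 and 3618 and quantile normalization 2361 and 3053. With age in Mtr4-null oocytes the pseudocount called 1322 higher, median-of-ratios scaling 1553 and quantile normalization 1483, rather than 1082. A more positive genotype difference at day 21 was called for 1946 and 2090 under the first 2 of these, rather than 1618. Rescaled columns called 527 lower with age in WT oocytes. The share of higher genes among those called at day 14 was 83.9% as deposited and 68.8% under quantile normalization. With age in Mtr4-null oocytes that share was 32.8% as deposited, 55.1% under median-of-ratios scaling and 48.2% under quantile normalization, and for the change of the genotype difference it was 37.7%, 54.3% and 48.7%. No paired analysis was possible because the columns are group means, which also bars leaving out a replicate. Depth limits are unknown; Ddx6 and Zfp36l2, the lowest members, depend most on the pseudocount.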

Other observations

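Over the whole table, genes with and without a CPE in the last 100 bases of the annotated 3′ untranslated region were set side by side. The median log2 difference between Mtr4-null and WT oocytes at day 21 was -0.22 in 1891 genes with the element and -0.39 in 7513 genes without it, and 22.8% and 28.1% of them were at least 2-fold lower in Mtr4-null oocytes, while 18.7% and 17.2% were at least 2-fold higher. At day 14 the medians were 0.030 and 0.034. The genes with the element were also somewhat more abundant, with a median mean FPKM of 13.03 against 11.1, and had longer 3′ untranslated regions, with medians of 1119 and 1018 bases. The part of abundance and length in this difference was not tested, and the comparison was chosen after the values of the 10 genes were seen.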
